A study of Homo sapiens with 9 samples.

Results

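KLK2, KLK3 and KLK4 are prostate kallikreins, secreted serine proteases encoded by neighbouring genes on chromosome 19. Their rows were picked by gene name from a table of read counts, and they are 3 of its 37351 genes. RNA sequencing was performed on LNCaP, an established human prostate cancer line grown from a lymph node metastasis that depends on androgen signaling. All cells were first held without serum and calcium for 6 to 12 hours. Those collected at 12 and 24 h then received 15 ng/mL recombinant NRG1, which binds and activates HER3. RNA was taken at 0, 12 and 24 h with 3 libraries per time, labelled as biological replicates and plated in triplicate, so p-values measure the spread between these cultures of a single line. The 0 h libraries had starvation and no time with NRG1. No time-matched library without NRG1 was analysed here, so NRG1 and time in serum-free medium cannot be told apart in any comparison with 0 h. In RNA from whole cultures, fewer cells of a kind and less RNA per cell cannot be told apart either.

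Tissue kallikreins are made as inactive precursors that become proteases once a short leading peptide is removed. KLK3 is prostate-specific antigen (PSA), the chymotrypsin-like enzyme that liquefies the seminal clot and is measured in blood to follow prostate cancer. KLK2 is a trypsin-like enzyme that can activate the KLK3 precursor, and KLK4 is a further trypsin-like kallikrein of the prostate. All are known as genes that androgen turns on in luminal prostate cells.

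In the GRCh38 coordinates of the table, KLK3 (ENSG00000142515.15) spans chr19:50854915-50860764 on the forward strand and KLK2 (ENSG00000167751.13) spans chr19:50861568-50880567 on the same strand. KLK4 (ENSG00000167749.11) spans chr19:50906352-50910738 on the reverse strand. No other row of the table overlapped any of the 3 genes. KLK2 and KLK3 are close copies: in the GENCODE v44 canonical transcripts their coding sequences matched at 668 of 783 bases (85.3%), with 115 substitutions. KLK4 was farther from both, at 54.5% identity with KLK2 and 51.7% with KLK3 over the aligned columns. The longest run of bases that KLK2 and KLK3 shared in any annotated transcript was 60 bases, shown here because it is the stretch where short reads of the pair could be confused. It lies in coding exon 3 of both genes, at chr19:50858242-50858301 in KLK3 and chr19:50876685-50876744 in KLK2, forward strand, in lower case throughout:
KLK3 and KLK2 shared exon 3 run: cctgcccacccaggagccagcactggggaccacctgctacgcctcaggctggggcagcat
Of the windows of 150 bases, the length of 1 read, 0 of 2680 in the KLK2 transcript and 0 of 1315 in the KLK3 transcript were present in the other. For windows of 50 bases the number was 11 of 2780 in KLK2 and 11 of 1415 in KLK3. How the counting treated reads that map to several places is not given in the sources used here.

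The promoters carried the same likeness. The 250 bases before the RefSeq start sites of KLK3 and KLK2 (GRCh38.p14) matched at 78.2% of aligned columns and shared a run of 80 bases, whereas KLK4, with a start site at either of 2 positions, matched them at 43.6% to 46.4%. The KLK3 window is shown whole, at chr19:50854665-50854914 on the forward strand, and holds no annotated exon. Capitals mark an androgen response element-like match and a TATA box match:
KLK3 promoter: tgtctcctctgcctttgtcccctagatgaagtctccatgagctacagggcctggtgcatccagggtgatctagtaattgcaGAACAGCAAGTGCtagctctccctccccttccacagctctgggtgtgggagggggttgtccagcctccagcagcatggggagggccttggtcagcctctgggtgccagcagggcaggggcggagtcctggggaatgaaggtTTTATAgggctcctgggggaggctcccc
The match GAACAGCAAGTGC fits a relaxed element, GNACA and GTNC set apart by 4 bases of any kind, searched on both strands, and began 169 bases before the KLK3 start. Together with the base before it, it also holds the half-site AGAACA. The KLK2 window held the same 13 letters, beginning 175 bases before its start, but no AGAACA. In GENCODE v44, 207 of the 250 bases of the KLK2 window are exon in other KLK2 transcripts, so around the match only the exon-free stretch is shown, at chr19:50873255-50873297, beside the equally placed KLK3 stretch at chr19:50854737-50854779, with the match in capitals:
KLK3 element: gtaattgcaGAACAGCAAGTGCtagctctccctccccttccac
KLK2 element: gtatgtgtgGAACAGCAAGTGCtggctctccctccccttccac
These 43 bases were identical at 38 positions. Nearer the start, both genes held TTTATA, the reverse strand of TATAAA, shown in capitals within 30 bases at chr19:50854875-50854904 in KLK3 and chr19:50873393-50873422 in KLK2, where these bases are exon in other KLK2 transcripts:
KLK3 TATA: gggaatgaaggtTTTATAgggctcctgggg
KLK2 TATA: gagaatgaaggcTTTATAgggctcctcagg
The relaxed element was present in 1.81% of 35116 RefSeq promoter windows, the half-site in 12.4% and TATAAA in 10.7%. Neither KLK4 window held a match to any of these letters. Of 42 other androgen-responsive genes tested below, 27 had a promoter window, and 1 of these, CENPN, held the relaxed element. The full element, GAACA and TGTTC set apart by 3 bases of any kind, which 0.0228% of the windows held, was absent from the windows of all 3 genes, as were TGANTCA (AP-1), CCGGAAG (ETS) and TGTTTNC (forkhead), which were found in 6.57%, 8.52% and 15.5% of windows. These matches are letters only and were not tested for binding.

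Total counts per library were 47016302 to 60985825, and all 3 libraries at 0 h were deeper than the rest. Between 5.02% and 6.09% of counts came from mitochondrially encoded genes. All 9 luminal prostate markers were above the count filter, and they include KLK3 and KLK2 themselves. Among the others, FOLH1 was at 1608 CPM (read counts scaled to library size) and KRT8 at 536 CPM at 0 h. Of the basal markers, KRT5 had 1 read over all libraries, TP63 had 8 and KRT14 had 71. Of the neuroendocrine markers, INSM1 had 5 reads, CHGA had 34 and SYP had 1632, or 3.55 CPM at 0 h. Of the leukocyte markers, CD3E had 3 reads, PTPRC had 10 and CD68 had 101. KRT14, SYP and CD68 passed the count filter and were not called in any comparison. Of the 4 fibroblast markers, COL1A2 had 1 read, DCN had 11, COL1A1 was at 22.4 to 24.6 CPM by time, and LUM rose from 1.03 to 1.52 CPM by 24 h (log2 fold change 0.56, edgeR adjusted p = 0.0479), a call lost in all 9 fits with a library left out (0.47 to 0.60) and with the replicate number as a block (adjusted p = 0.0581). The LUM call was also lost with no scaling factor (edgeR adjusted p = 0.0507) and with all genes that had a count (edgeR adjusted p = 0.118). With only the 6 libraries compared it was lost as well (edgeR adjusted p = 0.0691). The part of the fibroblast markers in the kallikrein results was not tested. EGR1, a gene that growth factor signaling turns on at once, had a level of 0.692 CPM before treatment, 22.4 by 12 h and 23.2 by 24 h.

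KLK3 rose by 12 h and was lower again at 24 h while staying above its starting level. KLK2 rose slightly by 12 h and then fell below its starting level by 24 h. No change of KLK4 passed the test at either time. None of these changes reached 1.5-fold. Levels are given as CPM on library sizes adjusted by TMM factors (trimmed mean of M values), and tests are edgeR quasi-likelihood tests with Benjamini-Hochberg adjustment over all 19250 genes that passed a filter on low counts, with a gene called at an adjusted p of at most 0.05. All 3 kallikreins passed that filter.

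The KLK3 level was 973, 998 and 1013 CPM in the 3 libraries at 0 h. At 12 h it was 1309, 1344 and 1331 CPM. At 24 h it was 1253, 1159.95 and 1135 CPM. All libraries at 12 and 24 h were above all libraries at 0 h, all at 24 h were below all at 12 h, and replicate 1 was the highest of the 24 h libraries. Between 12 h and 0 h KLK3 differed by a log2 fold change of 0.42 (SE 0.033, edgeR adjusted p = 4.34e-12), a 1.34-fold rise. Between 24 h and 0 h the log2 fold change was 0.25 (SE 0.033, edgeR adjusted p = 3.23e-07), or 1.19-fold. Between 24 h and 12 h KLK3 fell by 0.17 on the log2 scale (SE 0.033, edgeR adjusted p = 0.00105). Ranked by counts in each library, KLK3 stood at place 100 to 105 before treatment, place 64 or 65 by 12 h and place 73 to 84 by 24 h.

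The KLK2 level was 236, 239 and 251 CPM at 0 h. It was 267, 254 and 264 CPM at 12 h. It was 220.4, 197 and 204 CPM at 24 h. The 12 h libraries were the highest and the 24 h libraries the lowest, with no overlap between any of the times, although the highest 0 h library and the lowest 12 h library were close. At 12 h KLK2 was 1.08-fold higher than at 0 h (log2 fold change 0.11, SE 0.036, edgeR adjusted p = 0.0273). That call was lost when any of 4 libraries was left out: the log2 fold change was 0.097 without 0 h replicate 1 (adjusted p = 0.0787), 0.10 without 0 h replicate 2 (adjusted p = 0.0760), 0.099 without 12 h replicate 1 (adjusted p = 0.11) and 0.11 without 12 h replicate 3 (adjusted p = 0.0786). At 24 h KLK2 was lower than at 0 h, with a log2 fold change of -0.22 (SE 0.036, edgeR adjusted p = 1.42e-05). From 12 to 24 h KLK2 fell by 0.34 on the log2 scale (SE 0.037, edgeR adjusted p = 5.95e-08). In the ranking by counts it stood at place 634 to 689 before treatment, 569 to 615 by 12 h and 750 to 868 by 24 h.

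The KLK4 level was 86.5, 95.1 and 94.7 CPM at 0 h. It was 95.3, 94.2 and 92.4 CPM at 12 h. It was 92.5, 90.4 and 82.1 CPM at 24 h. The groups overlapped in every comparison, and replicate 1 at 0 h and replicate 3 at 24 h were the lowest libraries. The log2 fold change of KLK4 was 0.030 between 12 h and 0 h (95% interval -0.054 to 0.11, edgeR adjusted p = 0.696). It was -0.060 between 24 h and 0 h (95% interval -0.14 to 0.024, edgeR adjusted p = 0.348). Between 24 h and 12 h it was -0.090 (95% interval -0.18 to -0.0054, edgeR adjusted p = 0.229), an interval that is not adjusted for the number of genes. The intervals against 0 h do not hold the log2 fold changes found for KLK3 at 12 h and 24 h, whereas the 12 h interval holds that of KLK2 and the interval between 24 h and 12 h holds that of KLK3.

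**Figure D1:**
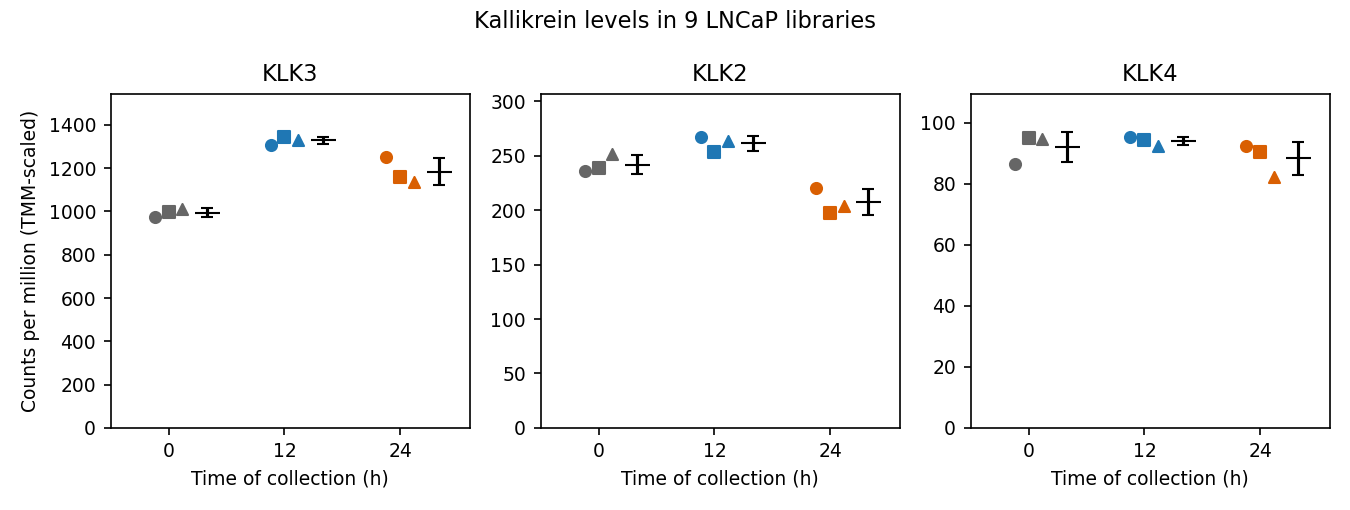
CPM on TMM-scaled library sizes (vertical axis, from 0) of KLK3, KLK2 and KLK4 in each library against time (horizontal axis, h); circles, squares and triangles are replicates 1, 2 and 3, and the black marks are the mean ± SD (n = 3). KLK3 sits between 973 and 1013 at 0 h and between 1309 and 1344 at 12 h, KLK2 is lowest at 24 h (197 to 220.4), and KLK4 stays between 82.1 and 95.3.

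Of the 3 kallikreins, 2 were called at 12 h against 0 h, both higher, where 18.7% of all tested genes were called, 10.6% higher and 8.16% lower. At 24 h against 0 h, 2 were called, KLK3 higher and KLK2 lower, where 21.1% of all genes were called, 11.6% higher and 9.48% lower. Between 24 h and 12 h, 2 were called, both lower, where 6.08% were called, 3.03% higher and 3.05% lower. With 3 genes, these counts are too few to set apart from the background. The same pairs were called by DESeq2. At a 1.5-fold threshold 0 of the 3 kallikreins were called, beside 2.37%, 3.31% and 0.452% of all genes in the order of these comparisons. The comparisons with 0 h share their control libraries.

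Compared per length, KLK3 had the highest level of the 3 genes. Over the union of annotated exons it was at 214 ± 4.34 CPM per kb at 0 h (SD, n = 3), KLK4 was at 47.6 ± 2.52 and KLK2 at 38.1 ± 1.31. Divided by the length of the canonical transcript in place of the union, KLK3 was at 679 ± 13.7 CPM per kb at 0 h, KLK2 at 85.5 ± 2.94 and KLK4 at 65.04 ± 3.45. KLK3 led by either length at every time, whereas the order of KLK2 and KLK4 depended on the length used. Both lengths came from GENCODE v44, whereas the authors counted reads on an earlier release.

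Ratios of counts within a library do not depend on how libraries are scaled, and they showed that the paralogs changed unequally. Each ratio was tested over the 3 times with an exact permutation test of all 1680 assignments of the 9 libraries, and p-values were adjusted over 6 such relations. The KLK3 to KLK2 count ratio was 4.13, 4.18 and 4.03 at 0 h. It was 4.90, 5.30 and 5.05 at 12 h. It was 5.69, 5.88 and 5.57 at 24 h. The ratio rose at each step with no overlap between times, and its log2 mean was 2.04 ± 0.027, then 2.34 ± 0.057 and then 2.51 ± 0.039 (SD, n = 3; exact permutation p = 0.00357, the smallest these permutations can give, adjusted p = 0.00714). From 0 to 24 h the ratio grew 1.39-fold.

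The KLK4 to KLK2 ratio was 0.367, 0.398 and 0.377 at 0 h. At 12 h it was 0.357, 0.372 and 0.351. At 24 h it was 0.420, 0.458 and 0.403, and all 24 h libraries were above all others while the 0 h and 12 h libraries overlapped. On the log2 scale the 24 h mean was 0.16 above the 0 h mean (exact permutation p over the 3 times = 0.00714, adjusted p = 0.00857). Without 24 h replicate 2, the highest library, that difference was 0.11 (exact permutation over the 3 times, adjusted p = 0.0514).

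The KLK4 to KLK3 ratio was 0.0889, 0.0953 and 0.0935 at 0 h. It was 0.0728, 0.0701 and 0.0694 at 12 h, and 0.0738, 0.0779 and 0.0723 at 24 h. All 0 h libraries were above all later ones, and the 12 h and 24 h libraries overlapped. The log2 ratio was lower by -0.39 at 12 h and by -0.31 at 24 h (exact permutation p over the 3 times = 0.00714, adjusted p = 0.00857). An exact permutation test of 3 libraries against 3 cannot go below p = 0.1, which every pair of times without overlap reached.

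**Figure D2:**
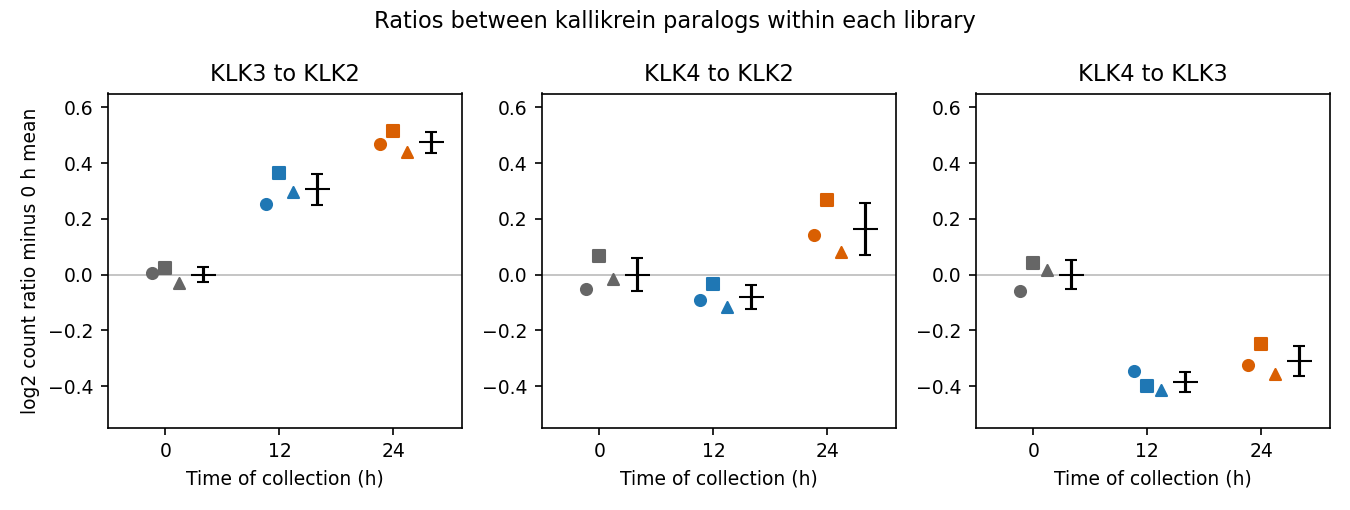
Difference of the log2 count ratio from its 0 h mean (vertical axis) against time (horizontal axis, h) for KLK3 to KLK2, KLK4 to KLK2 and KLK4 to KLK3; points are libraries, with shapes for replicates 1 to 3, and black marks are the mean ± SD (n = 3). The KLK3 to KLK2 ratio rises at each time to 0.47, KLK4 to KLK2 is above its 0 h values at 24 h only, and KLK4 to KLK3 is lower at both later times.

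The 3 kallikreins together took 0.133% ± 0.00174 of all counts at the start, 0.167% ± 0.000531 by 12 h and 0.148% ± 0.00705 by 24 h (SD, n = 3). KLK3 alone took 0.0996% ± 0.000897, then 0.132% ± 0.00135 and then 0.119% ± 0.00566 (exact permutation p = 0.00357, adjusted p = 0.00714). The KLK2 share was 0.0242% ± 0.000652, 0.0260% ± 0.000765 and 0.0208% ± 0.00118 at these times (exact permutation p = 0.00357, adjusted p = 0.00714). The KLK4 share was 0.00922% ± 0.000374, 0.00935% ± 0.000164 and 0.00885% ± 0.000472, and the times were not told apart (exact permutation p = 0.293). Of the summed kallikrein counts, KLK3 made up 74.9% at 0 h, 78.9% at 12 h and 80.0% at 24 h. KLK2 made up 18.2%, 15.5% and 14.0%, so its part shrank also at 12 h, when its own level was highest. KLK4 made up 6.93%, 5.58% and 5.98%.

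**Figure D3:**
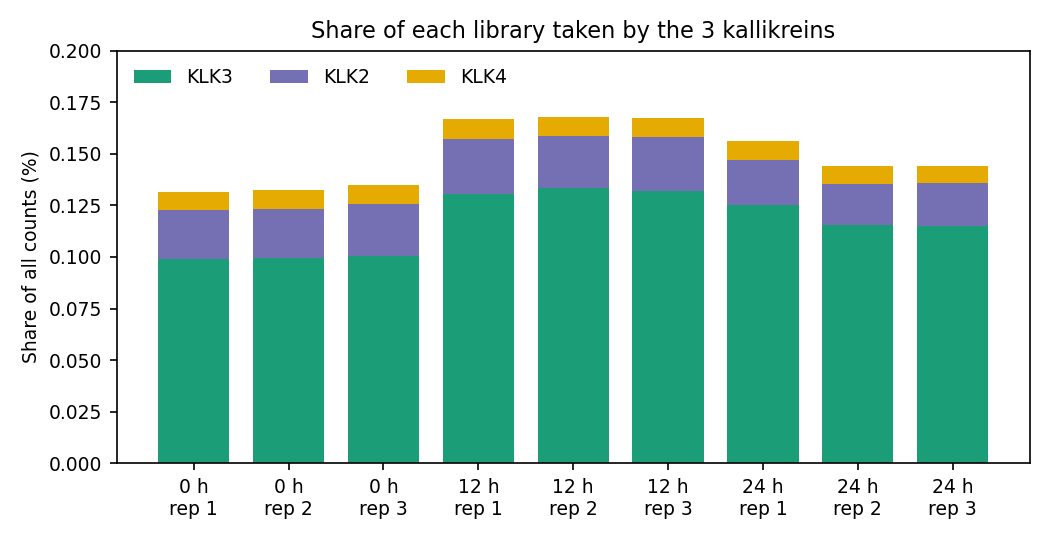
Percent of all counts (vertical axis, from 0) taken by KLK3, KLK2 and KLK4 in each of the 9 libraries (horizontal axis, time and replicate), stacked. The stacks reach 0.132% to 0.135% before treatment, 0.167% to 0.168% by 12 h and 0.144% to 0.156% by 24 h, and most of each is KLK3.

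The other kallikreins were far below KLK2, KLK3 and KLK4 in read counts. Of 13 further family members listed, 9 were in the table and 4 passed the count filter. At 12 h against 0 h 0 of these 4 were called by edgeR, where 18.7% of all tested genes were called. At 24 h against 0 h 3 were called, all lower, beside 21.1% of all genes called and 9.48% called lower. KLK15, whose gene lies beside KLK3, was at 3.16, 2.64 and 2.43 CPM at 0 h and 2.54, 1.89 and 1.498 CPM at 24 h (log2 fold change -0.48, edgeR adjusted p = 0.0436), and these libraries overlapped. KLKP1, a pseudogene between KLK2 and KLK4, was at 1.84, 1.501 and 1.85 CPM at 0 h and 1.32, 0.846 and 1.09 CPM at 24 h (log2 fold change -0.68, edgeR adjusted p = 0.0170), with no overlap. KLK12 had 20, 34 and 24 reads at 0 h and 11, 5 and 7 reads at 24 h (log2 fold change -1.52, edgeR adjusted p = 0.0324). All 3 calls were lost when single libraries were left out: KLK15 without 0 h replicate 1 (-0.36) or 2 (-0.51), any 12 h replicate (-0.48 in each case), or 24 h replicate 2 (-0.45) or 3 (-0.32), KLKP1 without 0 h replicate 1 (-0.63) or 3 (-0.62) or 24 h replicate 2 (-0.52), and KLK12 without 0 h replicate 2 (-1.26) or 3 (-1.56) or 24 h replicate 2 (-1.25) or 3 (-1.44). DESeq2 did not call KLK15 either (adjusted p = 0.0527), nor did edgeR with only the 6 libraries compared (adjusted p = 0.0612). KLK14, the last of the 4, was at 0.262 CPM at 0 h, 0.102 at 12 h and 0.201 at 24 h and was not called.

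Below the filter, KLK1 had 24 reads over all 9 libraries, KLK6 had 21, KLK7 had 13, KLK11 had 6 and KLK5 had 2. KLK6 had 0 reads in the 3 libraries at 0 h, which allows up to 0.0169 CPM over that group (3 counts, counting error only), and 8, 3 and 5 reads at 12 h. No test was made of it. KLK8, KLK9, KLK10 and KLK13 were not analysed here.

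Within 100 kb of the 3 kallikreins the table held 15 other genes, of which 9 passed the filter. C19orf48, an abundant gene on the far side of KLK15, was at 272 CPM at 0 h, 347 at 12 h and 325 at 24 h. Its log2 fold change was 0.35 at 12 h (edgeR adjusted p = 2.29e-10) and 0.25 at 24 h (edgeR adjusted p = 1.7e-07), beside 0.42 and 0.25 for KLK3. At 12 h it was the 1 neighbour called of 9, beside 18.7% of all tested genes. At 24 h KLK15 and KLKP1 were called as well, beside 21.1% of all genes, and both calls were lost when single libraries were left out. The others, ACP4 and several noncoding transcripts, were at about 1.1 CPM or lower at each time.

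**Figure D4:**
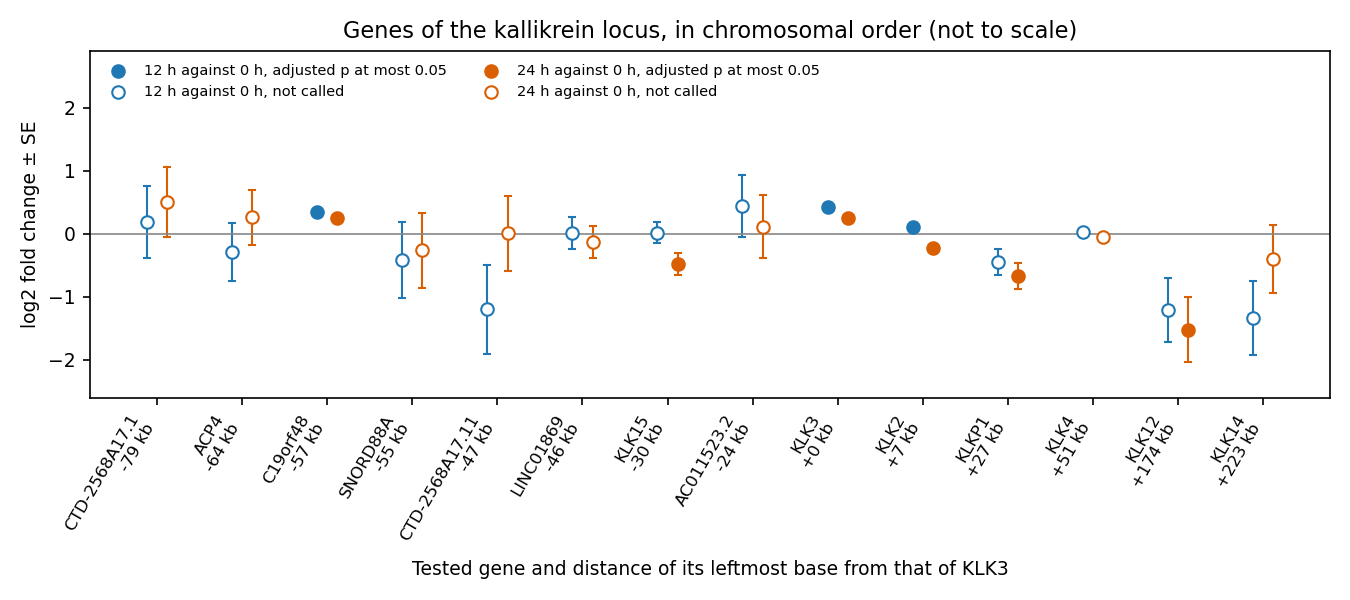
Fitted log2 fold change ± SE (vertical axis) at 12 h and 24 h against 0 h for the tested kallikreins and their neighbours, in the order of the chromosome (horizontal axis, with the distance in kb from the leftmost base of KLK3; spacing not to scale). Filled circles passed an adjusted p of 0.05. KLK3 and C19orf48 are above 0 at both times, KLK2 crosses from above to below, and KLK4 lies close to 0.

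Genes that act with kallikreins were followed from lists written from general knowledge. Of 13 inhibitors listed, 5 passed the filter, and 2 were called at 12 h and 1 at 24 h against 0 h, beside 18.7% and 21.1% of all genes. SPINT2, a membrane inhibitor of trypsin-like proteases, was at 249.8 CPM at 0 h, 214 at 12 h and 223 at 24 h (log2 fold change -0.22, edgeR adjusted p = 2.38e-06, and -0.16, edgeR adjusted p = 0.00026). SPINT1, its close relative, was at 177, 178 and 174 CPM and was not called. A2M, a broad protease inhibitor of blood, went from 0.11 to 0.342 CPM by 12 h (edgeR adjusted p = 0.0415), a call lost without 0 h replicate 2 or 3, 12 h replicate 2 or 3 or 24 h replicate 2, with log2 fold changes of 1.07 to 1.66 against 1.60 with all libraries. It was also lost with the replicate number as a block (adjusted p = 0.0639) and with all genes that had a count (adjusted p = 0.0503). SERPINA3, the main partner that binds KLK3 in blood, had 12 reads in all. The inhibitors' median log2 fold change was 0.0092 at 12 h and -0.024 at 24 h, beside -0.0084 and -0.0068 over all genes.

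Of 14 kallikrein substrates and receptors listed, 8 passed the filter, with 1 called at 12 h and 2 at 24 h, all higher, beside 10.6% and 11.6% of all genes called higher. F2RL1, the protease-activated receptor PAR2 that trypsin-like kallikreins including KLK2 and KLK4 can cleave, was at 23.4 CPM at 0 h, 28.6 at 12 h and 26.2 at 24 h (log2 fold change 0.29, edgeR adjusted p = 4.67e-05, and 0.16, edgeR adjusted p = 0.0174). The 24 h call was lost without 0 h replicate 2 (0.15) or 24 h replicate 1 (0.15) or 2 (0.16). FN1, the matrix protein fibronectin, was at 201 CPM at 0 h and 261 at 24 h (log2 fold change 0.37, edgeR adjusted p = 0.0417), a call lost without 0 h replicate 2 or 3, 12 h replicate 1 or any single 24 h replicate, at 0.34 to 0.39. The FN1 call was also lost with no scaling factor (edgeR adjusted p = 0.0526) and with all genes that had a count (edgeR adjusted p = 0.0620). IGFBP3, a binding protein of insulin-like growth factors that KLK3 can cut, was at 4.66, 4.98 and 5.66 CPM and was not called, nor was SEMG1, the seminal clot protein that KLK3 cleaves, at under 1 CPM. Median log2 fold changes of this list were 0.17 at 12 h and 0.19 at 24 h, beside -0.0084 and -0.0068 over all genes. The 12 h median lay between PLAUR (0.15, SE 0.27) and PLAT (0.19, SE 0.38). The 24 h median lay between F2RL1 and LAMA1 (0.22, SE 0.34). PLAUR, PLAT and LAMA1 were under 1 CPM and not called, so these medians are imprecise, and a shift of the list was not tested.

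GATA2, a pioneer transcription factor of the prostate, rose from 293 to 358 and 345 CPM, by 0.29 and 0.24 on the log2 scale (edgeR adjusted p = 6.69e-09 and 2.78e-07). ETV1 rose as well (0.30 and 0.17), as did GRHL2 (0.16 and 0.20). FOXA1, the pioneer factor of the luminal lineage, was at 559.9 CPM at 0 h, 527 at 12 h and 531 at 24 h, with an edgeR adjusted p of 0.0350 at 12 h that was lost when any library other than 24 h replicate 3 was left out (-0.095 to -0.072 against -0.087). The FOXA1 call was also lost with all genes that had a count (edgeR adjusted p = 0.0728). Of the 14 androgen signaling and lineage genes tested, 3 were called higher and 7 lower at 12 h, beside 10.6% and 8.16% of all genes, and 3 higher and 5 lower at 24 h, beside 11.6% and 9.48%, with medians of -0.10 and -0.062 beside -0.0084 and -0.0068 over all genes.

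Among other androgen-responsive genes, KLK3 stood near the top at both times, and KLK2 stood in the upper part at 12 h and nearer the middle at 24 h. The list held 46 gene symbols without the 3 kallikreins, and 42 of them were tested. At 12 h against 0 h, 7 were called higher and 17 lower, beside 10.6% and 8.16% of all genes. At 24 h against 0 h, 6 were called higher and 21 lower, beside 11.6% and 9.48%. Between 24 h and 12 h 3 were called higher and 16 lower, beside 3.03% and 3.05%. Their median log2 fold changes were -0.11, -0.15 and -0.11, beside -0.0084, -0.0068 and 0.0011 over all genes. The KLK3 log2 fold change was above that of 38 of the 42 genes at 12 h and of 35 at 24 h, and that of KLK2 was above 33 of them at 12 h and 16 at 24 h.

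The largest rises among called genes of the list at 12 h were those of PTGER4, a prostaglandin receptor (1.31), ADAM7 (1.05) and UAP1, an enzyme of amino sugar synthesis (0.69). Among the largest falls were C1orf116 (-0.71) and GREB1 (-0.69). At 24 h the same rule gave PTGER4 (1.28), UAP1 (0.58) and ADAM7 (0.53) as rises and, among the falls, C1orf116 (-1.04) and SLC45A3 (-0.77). Between 24 h and 12 h STEAP2 (0.28), STEAP1 (0.19) and ABCC4 (0.12) were the only list members called higher, and ADAM7 (-0.52) and GNMT (-0.42) were among those that fell most. Beside these, KLK2 was at -0.34 and KLK3 at -0.17 in that comparison. From 12 to 24 h the call of ABCC4 was lost when any single 12 h replicate or 24 h replicate 2 was left out (0.11 to 0.12), and that of GNMT without 12 h replicate 2 or 3 or 24 h replicate 1 or 2 (-0.44 to -0.31).

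**Figure D5:**
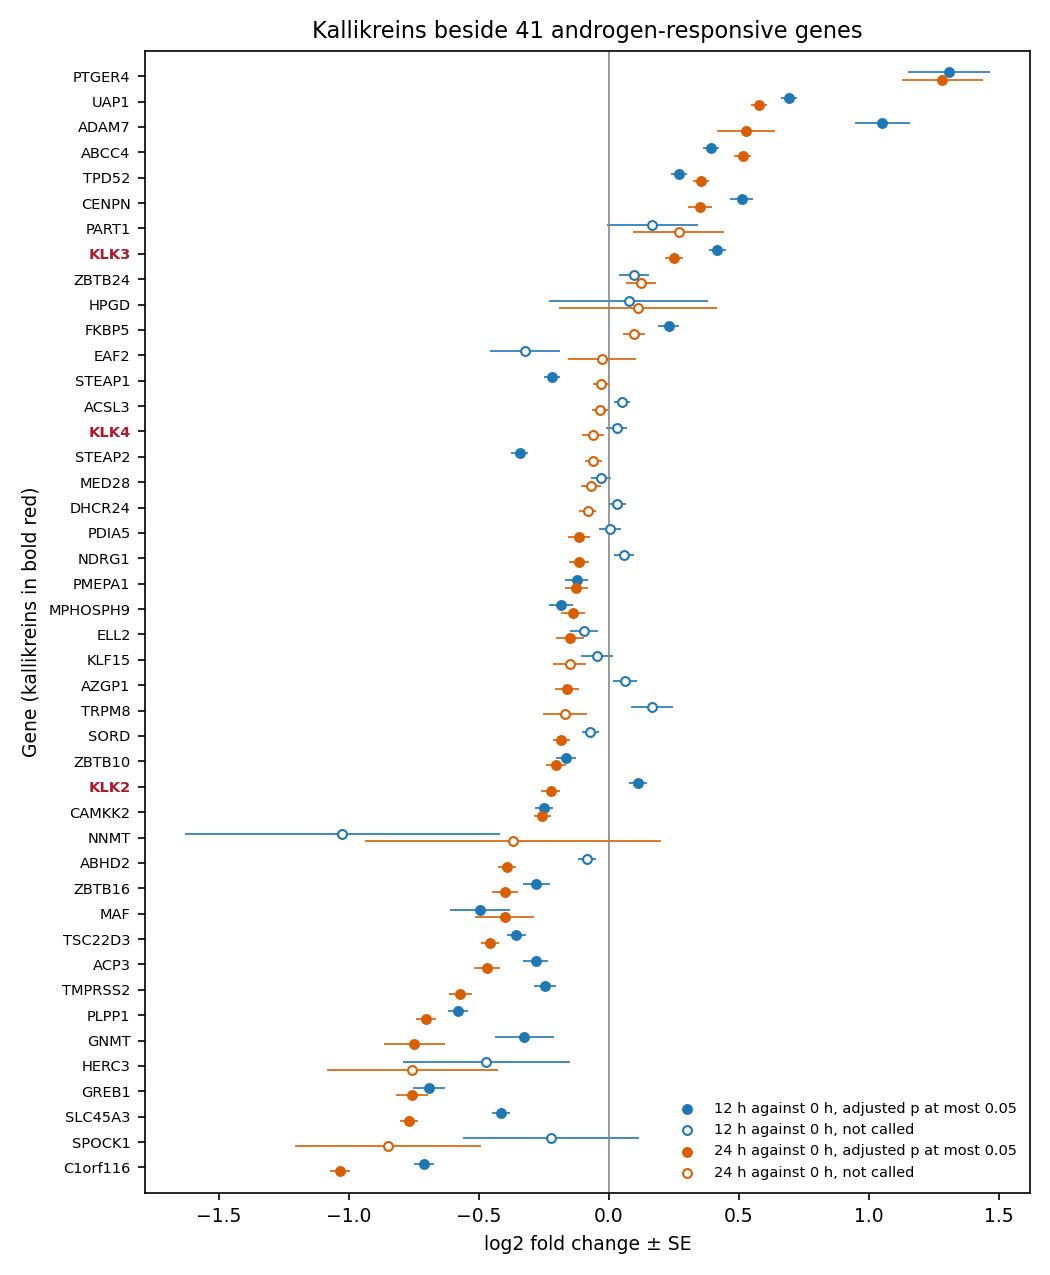
Fitted log2 fold change ± SE (horizontal axis) at 12 h and 24 h against 0 h for 41 of the 42 tested androgen-responsive genes and, in bold red, KLK3, KLK4 and KLK2 (vertical axis, ordered by the 24 h value); filled circles passed an adjusted p of 0.05. KLK3 lies among the few genes to the right of 0 at both times, KLK4 close to 0, and KLK2 changes side between 12 h (0.11) and 24 h (-0.22).

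Pattern likeness was described by Pearson's r of log2 CPM over the 9 libraries, among the 6145 tested genes whose average log2 CPM was 5 or more. These libraries share their times, depth and cultures, so high values are frequent and are given as a description. The genes most like KLK3 were GNL2 (0.983), CCT8 (0.98) and ELOVL1 (0.977). Those most like KLK2 were CCNB2 (0.965), HARS2 (0.959) and HMGB3 (0.956). Those most like KLK4 were PAAF1 (0.972), PSME1 (0.968) and RPN2 (0.96). Between the kallikreins themselves r was lower, at 0.253 for KLK2 and KLK3, 0.643 for KLK2 and KLK4 and 0.254 for KLK3 and KLK4.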

How the data were processed

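LNCaP cells were profiled by paired-end mRNA sequencing at 0, 12 and 24 h of NRG1, with 3 libraries per time. The authors trimmed reads with Cutadapt, mapped them with STAR to GRCh38 and assigned them to GENCODE genes with featureCounts, and deposited the counts as whole numbers per library, not normalized. Strand setting and treatment of multi-mapping reads are not given in the sources used here. The table's 14 empty columns were not used. Groups and replicate numbers came from the sample titles.

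Genes kept by filterByExpr (19250) were scaled with TMM and tested in edgeR 4.0.16 (R 4.3.3) by the quasi-likelihood method (robust, all 9 libraries together, no covariate), and p-values were adjusted by Benjamini-Hochberg over all tested genes. The fit was tested on simulated counts. Calls needed an adjusted p of at most 0.05. A fold of 1.5, the threshold of the study's methods, was an alternative, as were DESeq2 1.42.0, other size factors and filters, the 6 libraries compared only, the replicate block, library sizes without the kallikreins or without mitochondrial genes, and each library left out. For the fold changes of other named genes and the counts over all genes these were run after seeing the data. Ratios and shares were tested by exact permutation. Comparisons of 2 times are two-sided, whereas the permutation tests over the 3 times have no direction. Sequences came from RefSeq promoter windows (GRCh38.p14), in which KLK2, KLK3 and KLK4 all matched by symbol, and from GENCODE v44 transcripts, aligned with Biopython 1.88. Plots were drawn with matplotlib 3.10.9.

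Named genes were the kallikrein family, tested genes of the inhibitor, substrate and receptor, and androgen signaling and lineage lists, genes within 100 kb, the 3 largest called rises and falls of the androgen-responsive list, the 3 genes most like each kallikrein, cell type markers and 3 early response genes: EGR1, DUSP6 and SPRY4, with log2 fold changes of 5.02, 4.25 and 6.13 at 12 h. Some genes that meet these rules are not reported here, though list counts include them. The kallikreins and the lists were chosen with earlier results of these data known. Depth was 47016302 to 60985825 counts per library, and since reads carried no molecular identifiers any interval from it is for counting error only.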

Additional observations from a re-analysis of the deposited data

Results flagged for a closer look

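The levels of KLK2 and of KLK3 differed between 12 h and 24 h, by the direct test of these times. NRG1 and time in serum-free medium cannot be told apart in this comparison either. For KLK2 the log2 fold change of 24 h against 12 h was -0.34 (edgeR adjusted p = 5.95e-08), lower in 3 of 3 libraries at 24 h than in all libraries at 12 h. For KLK3 it was -0.17 (edgeR adjusted p = 0.00105), again lower in 3 of 3 libraries. For KLK4 it was -0.090 (edgeR adjusted p = 0.229).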

How the results depend on the processing

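Of 228 values recomputed for the fold changes, ratios and shares of KLK2, KLK3 and KLK4, 222 kept their direction and their side of the threshold, 5 no longer passed it and 1 changed sign. With a library left out, the KLK2 log2 fold change at 12 h ran from 0.097 to 0.14, and its call was lost in 4 of 9 fits. The KLK4 to KLK2 log2 ratio at 24 h minus 0 h ran from 0.11 to 0.21. The sign change was that of KLK4 at 12 h against 0 h, -0.0099 without 0 h replicate 1, in a range of -0.0099 to 0.055 in which 0 of 9 values were called. Of 7 tested kallikrein family genes, 2 were called at 12 h and 5 at 24 h, beside 18.7% and 21.1% of all genes. With a library left out these counts were 1 to 2 and 2 to 5. Of 42 tested androgen-responsive genes, 19 were called between 24 h and 12 h, beside 6.08% of all genes. With a library left out that count was 11 to 21, with 11 without 12 h replicate 2 and also without 24 h replicate 2. With the 1.5-fold threshold the family counts were 0 at 12 h, 2 at 24 h and 0 between these times. The androgen-responsive counts were 6, 7 and 1, beside 2.37%, 3.31% and 0.452% of all genes. The 2 family genes were KLK12 and KLKP1, whose calls were lost when single libraries were left out. The number of all genes called between 24 h and 12 h fell from 1171 to 685 without 12 h replicate 2, 757 without 24 h replicate 3 and 776 without 12 h replicate 1. Fits without a library have fewer samples, and the cause of these losses was otherwise not tested. For other named genes, 1111 of 1203 values kept direction and call and 92 no longer passed. Deviations from group means correlated by -0.26 to 0.33 for the same replicate number and by -0.41 to 0.43 for other numbers. Deviations within a group cancel by construction, so these ranges cannot decide whether the replicate numbers pair the libraries. With the replicate number as a block, 3672, 4081 and 1262 genes were called in place of 3605, 4065 and 1171, KLK2 was at 0.11, -0.23 and -0.34 in these comparisons, no call for KLK2, KLK3 or KLK4 changed, and among other named genes the calls of A2M at 12 h and LUM at 24 h were lost. Scaling moved the median of all genes by less than 0.1. The methods mention a time 0 LNCaP replicate removed for quality without naming its treatment, and each 0 h library was left out in turn. Depth limits KLK1, KLK5, KLK6, KLK7 and KLK11, which were not tested.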
